A study of Homo sapiens with 8 samples.

Results

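WT4 is 1 of 4 wild-type lines that the study derived from A375, a human melanoma cell line, by growing each from a single cell, so every line is 1 clone. The study looked at how such cells respond to losing serum, in search of secreted factors that act on the junctions between them. Its members here were chosen by label: the 2 libraries labelled WT4, of 8 in all, set against the 6 libraries labelled WT1, WT2 and WT3. Each line gave 1 library after 12 hours in DMEM medium with 10% fetal bovine serum (FBS) and 1 library after 12 hours in DMEM alone, and all libraries were made from total RNA depleted of ribosomal RNA. No line carries a knockout or other treatment in the labels. The contrast is therefore between lines, with the serum condition as a covariate.

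Both deposited tables of this line are filed under a different name than WT4, and only the labels tie them to it. Reads counted on genes came to 29759279 in WT4 with FBS, the smallest of the 8 libraries, and to 53371498 in WT4 without FBS. The 6 other libraries held between 37847737 and 73341551. Levels are given below as CPM, read counts scaled to a common library size after TMM normalization, with no correction for gene length, so a level is compared between libraries and never between genes. All differences are log2 values of WT4 minus WT1 to WT3, with their standard errors (SE).

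Lines grown from single cells of the same tumour culture start from different cells and keep their own heritable states of gene activity, so clones can differ while growing under the same conditions. Melanoma cells range from pigmented, melanocyte-like states, driven by the factors MITF and SOX10, to undifferentiated states marked by the receptor AXL and by AP-1 and TEAD activity. They also build and remodel the extracellular matrix, the mesh of fibronectin, collagens and laminins to which integrins attach, while cadherins and nectins hold neighbouring cells together.

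WT4 stood apart from the 3 other lines, which were closer to each other. The number of genes that differed rests in large part on the WT4 library with FBS. It fell from 2160 to 1268 with a correction for GC content, with which the pairs of lines were not recomputed. WT4 had almost no RNA of *TENM2*, *NRG1* and *MACROH2A2*, all of them transcribed in the 6 other libraries, and carried 8.10-fold to 16.2-fold more RNA of *CACNA2D4*, *ST8SIA5*, *ID4*, *RASAL1* and *SEMA3G*. Fibronectin, 2 collagen chains and biglycan were lower in WT4, and the protease inhibitor gene *TIMP1* was higher. Matrix genes went both ways, with 2 higher and 3 lower of 26 other collagens (19.2% called, edgeR). Laminin, fibronectin and basement membrane genes gave 2 higher and 1 lower of 24 (12.5%, against 11.4% of all tested genes). The fibronectin call did not hold without the WT4 library with FBS. Of 44 interferon-stimulated genes tested, 8 were higher and none lower (18.2% called, against 11.4% of all tested genes; edgeR). Protein-coding genes alone passed more often than all tested genes, 1982 of 14027. Of genes that the study names, *NECTIN1*, *IGF1R*, *CDH2*, *MITF* and *BRAF* did not pass the test, although *CDH2* did with a correction for GC content. The study also names fibronectin, lower as given above, and *AXL*. That gene was lower too (log2 difference -0.57, SE 0.12, edgeR adjusted p = 0.0157), at -0.37 without the WT4 library lacking FBS.

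*NECTIN1* (ENSG00000110400, chr11:119638098-119729200 on GRCh38), which codes for a cell adhesion protein of adherens junctions, was read in every library. It stood at 67.4 CPM in WT4 with FBS and 44.8 CPM in WT4 without FBS, and ran from 44.9 to 59.6 CPM, median 49.7, in the 6 other libraries. WT4 was thus highest of the lines with FBS and lowest without it, and its difference over both conditions was 0.11 (SE 0.09, edgeR adjusted p = 0.452). The sign of this difference was not stable, at -0.09 with a correction for GC content and -0.07 without the WT4 library with FBS.

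The melanoma label was checked on 8 marker genes. Their summed level was 307 CPM in WT4 with FBS and 212 CPM without, against 186 to 310 CPM in the other libraries, and *MCAM*, a melanoma adhesion molecule, gave the most reads in this list. *MITF*, the master regulator of melanocytes, was at 39.0 and 35.5 CPM in WT4 and between 30.1 and 44.2 CPM elsewhere. *SOX10*, a factor of the melanocyte lineage, had 0 counts in all 8 libraries, which allows at most 0.106 CPM in WT4 with FBS and 0.0532 CPM in WT4 without FBS for 3 counts, covering counting error only. In the GENCODE annotation exons of *POLR2F* cover 5.39% of the *SOX10* exon bases and leave the rest to *SOX10* alone. The annotation and the strand setting behind the counts are not stated. Whether reads were set aside there as belonging to more than 1 gene was not tested. *TYR*, the key pigment enzyme, was at 0 in WT4 with FBS and 0.0177 CPM in WT4 without FBS, so these cells show little of the pigmented program.

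Markers of other cell types were compared as well. The 9 leukocyte markers summed to 6.94 and 8.74 CPM in WT4 and to at most 4.99 CPM elsewhere, and 2 of the 9 were at 0 in every library. *LYZ*, which codes for lysozyme, gave most of the reads in that sum and was higher in WT4 (log2 difference 0.93, edgeR adjusted p = 0.0119; exons of an antisense gene cover 34.7% of its exon bases), whereas *PTPRC*, the common leukocyte antigen CD45, had 0 counts in both WT4 libraries. Sums in WT4 fell within the range of the other libraries for 10 keratinocyte markers (69.1 and 62.1 CPM, most reads from *KRT10*; 1 marker at 0 throughout), 9 fibroblast markers (7.68 and 12.5 CPM, with *LUM* giving the most reads with FBS and *PDGFRA* without; none at 0 throughout) and 7 measured endothelial markers (15.1 and 25.2 CPM, most reads from *KDR*; 1 at 0 throughout). In bulk RNA, fewer cells of a kind and less RNA per cell cannot be told apart.

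Across 19005 tested genes, 2160 (11.4%) differed between WT4 and the 6 other libraries at an adjusted p under 0.05 (edgeR quasi-likelihood test, Benjamini-Hochberg), 1090 higher in WT4 (5.74%) and 1070 lower (5.63%). At least 2-fold differences were found for 490 of them (2.58%), 256 higher (1.35%) and 234 lower (1.23%). The median absolute log2 difference was 0.48 for the 2160 genes and 0.22 for all tested genes. Of 14027 protein-coding genes tested 1982 passed, and of 2951 long non-coding RNA genes 102. Protein-coding genes thus passed more often than the 11.4% of all tested genes that is set beside the gene lists below. These p-values measure the spread between libraries, while WT4 is a single line: an exact permutation over the 4 lines cannot go below p = 0.25, so the counts describe WT4 and say nothing of lines in general. The count rests in large part on the WT4 library with FBS, since 328 genes passed without it, 175 of them at least 2-fold. Without the WT4 library lacking FBS, 1757 genes passed, 673 lower and 261 at least 2-fold, and without WT1 lacking FBS 1342 passed, 565 of them lower. With line number as a random replicate block (limma voom) 1212 genes passed (6.38%), 750 higher and 462 lower. Of these, 1169 were among the 2160, all in the same direction. Without the block limma voom gave 1936 genes, 1102 higher and 834 lower. Named genes were not fitted that way, so a call of theirs lost with the block cannot be put down to the block alone. With a curve fitted to each library for the GC content of genes (called the GC curve below) 1268 genes passed.

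Both WT4 libraries lay outside the range of all 6 others for 2944 of the 19005 genes (15.5%), above them for 1516 (7.98%) and below them for 1428 (7.51%). The same count was 943 for WT1, 1194 for WT2 and 1205 for WT3, so WT4 had more than any of the 3. Of the 2160 genes that passed the test, 1234 were outside the range of the others, and in the remaining 926 a WT4 library overlapped them.

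Fitted with 2 libraries a side, WT4 differed from WT1 in 3798 genes (20.0%), from WT2 in 3322 (17.5%) and from WT3 in 2815 (14.8%) (edgeR, adjusted p under 0.05). Among the other lines, WT2 and WT1 differed in 616 genes (3.24%), WT3 and WT1 in 822 (4.33%) and WT3 and WT2 in 1364 (7.18%). Every pair with WT4 thus gave more genes than every pair without it. The pair counts and the counts outside the range were not recomputed with the GC curve. WT4 differed in the same direction from all 3 lines in 1422 genes, of which 1058 differed between no pair of WT1 to WT3. In the 13986 genes of at least 1 CPM, the standard deviation of the log2 difference was 0.50 to 0.59 in the pairs with WT4 and 0.35 to 0.43 in the pairs without it.

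**Figure D1:**
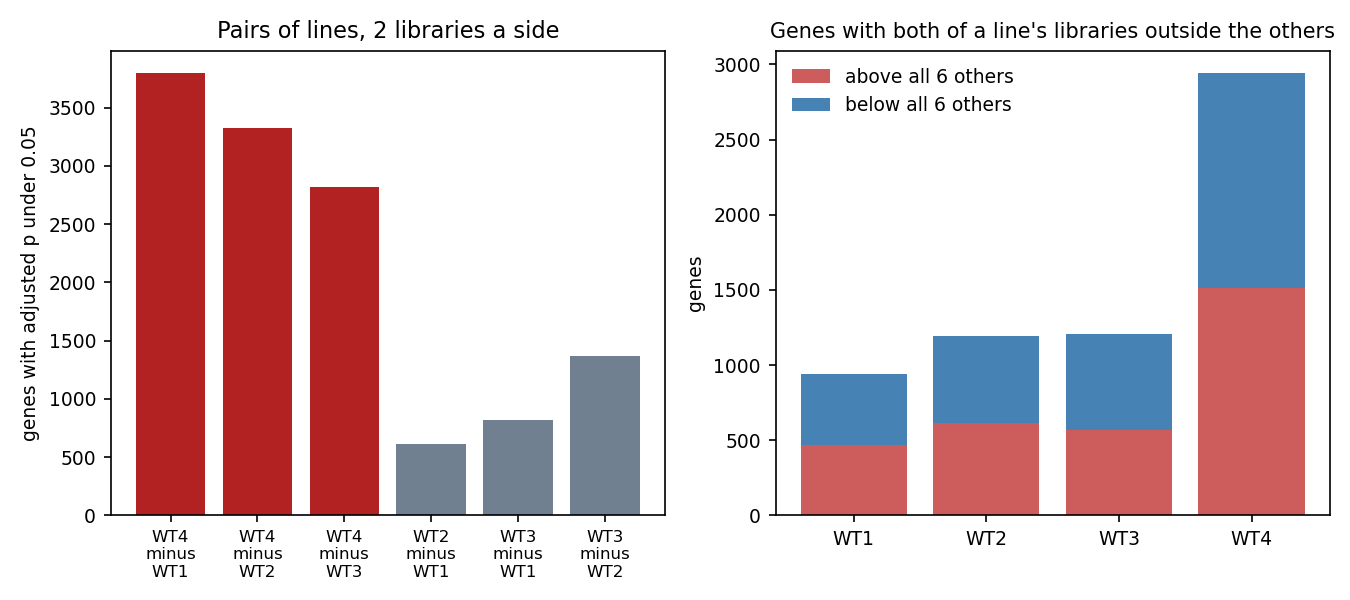
Left, number of genes with an adjusted p under 0.05 (edgeR) in each pair of lines, with pairs that hold WT4 in red. Right, number of genes for which both libraries of a line are above or below all 6 others. WT4 gives 2815 to 3798 genes in its pairs and 2944 genes outside the other libraries, more than the other lines in either plot.

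On the main axis of variation WT4 lay apart from the other lines only within each serum condition. In a principal component analysis of the 13986 genes, the first component held 45.9% of the variance and separated libraries by serum within each line. WT4 with FBS lay at 13.3 on it, among the serum-free libraries of WT1, WT2 and WT3 (2.68 to 18.8) and away from their libraries with FBS (-39.9 to -24.9). WT4 without FBS lay further on, at 56.2. On the second component (22.1%) WT4 was highest in each serum condition, at 40.4 with FBS and 8.39 without. The components were not recomputed with the GC curve.

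Several genes transcribed in the 6 other libraries were close to silent in WT4. *TENM2* (ENSG00000145934, chr5:166979029-168264157 on GRCh38), which codes for teneurin-2, a transmembrane adhesion protein of nerve cells, had 1 count in WT4 with FBS and 3 counts in WT4 without FBS. The 6 other libraries held 467 to 1973 counts of it, which is 11.6 to 26.4 CPM with a median of 14.3. The pooled ratio was 406-fold (95% exact binomial interval 158 to 1490, counting error only). Among all genes this was the only one with at most 3 counts in each WT4 library and at least 1 CPM in the 6 others, and no gene showed the reverse. Its adjusted p was 0.00416 in edgeR, 0.193 with the random replicate block in limma voom and 0.0708 without the WT4 library with FBS.

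*NRG1*, which codes for neuregulin, a ligand of the ERBB receptors, was at 0.493 CPM with FBS and 0.213 CPM without in WT4 and at 3.67 to 13.3 CPM, median 8.04, elsewhere. *MACROH2A2*, a macroH2A histone variant linked to silent chromatin, was at 0.282 and 0.532 CPM in WT4 and at 6.83 to 10.0 CPM, median 8.46, elsewhere. Its log2 difference was -4.36 (SE 0.21, edgeR adjusted p = 5.32e-06), and that of *NRG1* was -4.49 (SE 0.26, edgeR adjusted p = 1.4e-05). Both genes were transcribed in WT1, WT2 and WT3 with and without serum.

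*HBE1*, the embryonic epsilon globin gene, was at 1.66 and 0.673 CPM in WT4 and at 14.3 to 21.2 CPM elsewhere (log2 difference -4.11, SE 0.35, edgeR adjusted p = 0.000626). Its exons share 90% of their bases on the same strand with other annotated genes, among them *HBG2* and *OR51B5*, so this signal cannot be assigned to globin alone. *LRRC7*, which codes for a scaffold of synapses, had 5 and 2 counts in WT4 and was 23.7-fold lower there (95% interval 11.4 to 59.3, counting error only). The calls of *NRG1*, *MACROH2A2*, *HBE1* and *LRRC7* held in each of the 18 alternatives tried, with adjusted p up to 0.0450 for *LRRC7* (without the WT4 library lacking FBS) and with log2 differences from -5.90 to -3.00 for that gene.

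A further 6 low genes were not called with the random replicate block, a fit that changes the method (limma voom) as well as the block. *ATP10A*, which codes for a phospholipid flippase, had 1 and 15 counts in WT4, 61.8-fold less than the other libraries (95% interval 38 to 108, counting error only). *SLC35F3*, a solute carrier, was at 0.141 and 0.195 CPM in WT4 and at 1.55 to 5.11 CPM elsewhere, and *KCNK1*, a potassium channel gene, was at 0.106 and 0.177 CPM against 0.985 to 4.78 CPM. In both of these genes WT3 was the nearest to WT4 in each condition. They lie close to each other on GRCh38, at chr1:233904676-234324511 and chr1:233614106-233672514. *CD33*, a sialic acid-binding receptor of myeloid cells, *VGLL3*, a cofactor of TEAD factors, and *TH*, the rate-limiting enzyme of catecholamine synthesis, were also lower in WT4, at log2 differences of -4.68, -3.69 and -3.67. WT3 was lowest of the 3 other lines in these genes too. None of the 6 passed with the random replicate block (limma voom, adjusted p = 0.0784 for *ATP10A*, 0.110 for *SLC35F3*, 0.148 for *KCNK1*, 0.237 for *CD33*, 0.208 for *VGLL3* and 0.228 for *TH*). Without the WT4 library with FBS, the edgeR adjusted p was 0.0345 for *ATP10A*, 0.126 for *SLC35F3*, 0.176 for *KCNK1*, 0.258 for *CD33*, 0.231 for *VGLL3* and 0.311 for *TH*. Without WT4 lacking FBS it was 0.0641 for *SLC35F3*, 0.105 for *KCNK1*, 0.167 for *CD33*, 0.189 for *VGLL3* and 0.135 for *TH*. The call of *CD33* also ended without WT2 with FBS (0.0535) or lacking it (0.0551). That of *VGLL3* ended without WT1 with FBS (0.0790), WT1 lacking it (0.0759), WT2 with FBS (0.0575) or with the GC curve (0.0677), and that of *TH* without WT1 with FBS (0.0677), WT1 lacking it (0.0663) or WT2 lacking it (0.0566). With no filter on low counts, none of these 3 genes passed (0.0966 for *CD33*, 0.0902 for *VGLL3* and 0.0910 for *TH*).

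At the other end, *CACNA2D4*, an auxiliary subunit of voltage-gated calcium channels, was at 7.04 CPM with FBS and 12.6 CPM without in WT4. It ran from 0.399 to 0.762 CPM, median 0.605, in the other libraries, a log2 difference of 4.02 (SE 0.26, edgeR adjusted p = 1.77e-05). *SEMA3G*, a secreted semaphorin that guides growing axons and vessels, was at 19.1 and 31.3 CPM in WT4 and at 2.09 to 4.40 CPM, median 3.02, elsewhere. Its difference was 3.02 (SE 0.16, edgeR adjusted p = 6.42e-06).

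*ID4*, an inhibitor of basic helix-loop-helix transcription factors, was at 5.60 and 8.98 CPM in WT4 against 0.442 to 1.23 CPM elsewhere. *RASAL1*, which switches RAS off, was at 9.54 and 13.7 CPM against 0.849 to 2.03 CPM. *ST8SIA5*, a sialyltransferase of gangliosides, was at 4.61 and 15.6 CPM against 0.350 to 2.13 CPM. These 3 genes were higher without serum than with it in every line. *SHE*, an SH2 domain adaptor, was at 4.16 and 7.34 CPM in WT4 against 0.211 to 0.852 CPM. *SPRR2D*, a protein of the cornified envelope of skin, was at 10.7 and 4.25 CPM against 0.105 to 0.928 CPM. The calls of the 7 genes named in this and the preceding paragraph held in each of the 18 alternatives.

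Another 5 of the highest genes lost their calls without the WT4 library with FBS. They were *HAS2*, a hyaluronan synthase (log2 difference 3.28, adjusted p = 0.0722 without that library), *GRM8*, a glutamate receptor (3.02, 0.0990), *SOD3*, the extracellular superoxide dismutase (2.98, 0.160), *ACP3*, prostatic acid phosphatase (2.82, 0.118), and *CDCP1*, a membrane target of SRC kinases (2.51, 0.162; all edgeR). *HAS2*, *ACP3* and *CDCP1* were also not called without the WT4 library lacking FBS, at 0.0589, 0.0607 and 0.0769. All 5 kept their direction in the 18 alternatives and were called with the random replicate block.

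**Figure D2:**
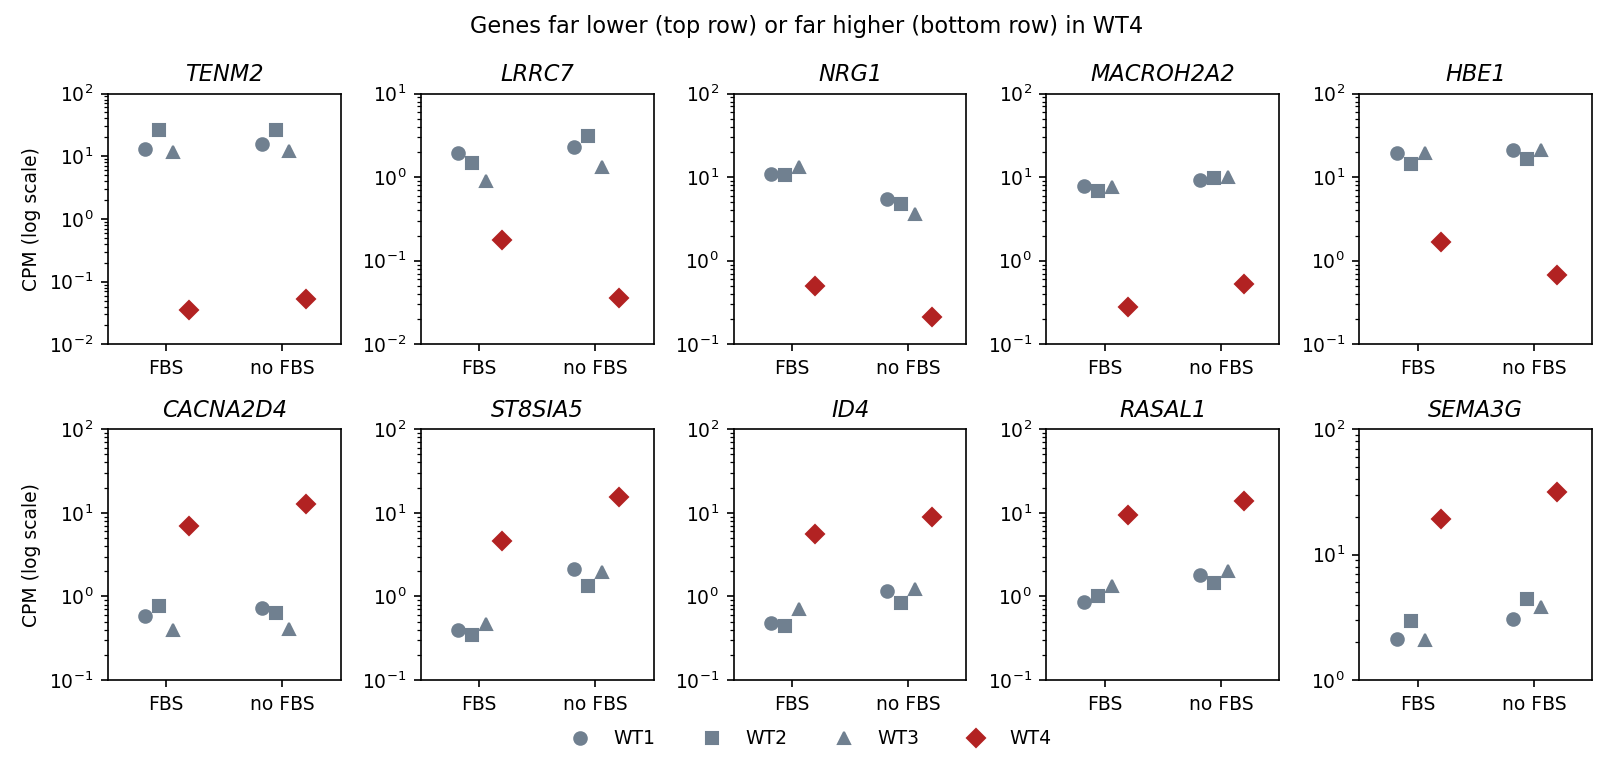
Level of 10 genes in each library, in CPM on a log axis, with FBS and without FBS, with WT4 as red diamonds. WT4 lies below the 6 other libraries in the top row, at 1 and 3 counts for TENM2, and above them in the bottom row, up to 31.3 CPM for SEMA3G. The choice of these genes required that separation.

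RefSeq promoters (GRCh38.p14, 250 bases before to 50 bases after the start) are shown for the genes that move the furthest, hold in each alternative and have 1 promoter entry outside the barred regions, which leaves 1 gene nearly silent in WT4 and 3 genes high in WT4. They are printed to show whether the start regions of these genes are alike in CG pairs, the site of DNA methylation in mammals. Capitals mark each CG, which reads the same on both strands.
MACROH2A2, low in WT4, chr10:70052596-70052895, plus strand: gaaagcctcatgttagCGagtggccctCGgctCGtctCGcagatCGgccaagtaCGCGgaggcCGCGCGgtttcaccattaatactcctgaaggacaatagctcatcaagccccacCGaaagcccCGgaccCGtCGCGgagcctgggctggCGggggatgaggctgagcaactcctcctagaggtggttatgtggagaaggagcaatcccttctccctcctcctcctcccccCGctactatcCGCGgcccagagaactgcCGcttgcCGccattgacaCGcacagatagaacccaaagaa
SHE, high in WT4, chr1:154502363-154502662, minus strand: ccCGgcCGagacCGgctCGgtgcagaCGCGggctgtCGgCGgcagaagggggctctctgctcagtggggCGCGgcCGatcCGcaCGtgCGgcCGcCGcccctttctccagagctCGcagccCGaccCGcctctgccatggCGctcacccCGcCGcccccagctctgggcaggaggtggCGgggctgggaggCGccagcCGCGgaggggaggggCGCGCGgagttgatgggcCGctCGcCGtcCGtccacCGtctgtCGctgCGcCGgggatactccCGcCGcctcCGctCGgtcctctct
ID4, high in WT4, chr6:19837120-19837419, plus strand: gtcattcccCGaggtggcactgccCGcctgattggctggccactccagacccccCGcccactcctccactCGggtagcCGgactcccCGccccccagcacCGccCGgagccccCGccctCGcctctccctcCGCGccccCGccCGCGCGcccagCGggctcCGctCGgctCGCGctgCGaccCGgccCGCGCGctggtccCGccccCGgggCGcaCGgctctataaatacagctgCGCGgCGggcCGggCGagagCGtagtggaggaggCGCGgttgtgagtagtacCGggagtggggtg
SEMA3G, high in WT4, chr3:52445054-52445353, minus strand: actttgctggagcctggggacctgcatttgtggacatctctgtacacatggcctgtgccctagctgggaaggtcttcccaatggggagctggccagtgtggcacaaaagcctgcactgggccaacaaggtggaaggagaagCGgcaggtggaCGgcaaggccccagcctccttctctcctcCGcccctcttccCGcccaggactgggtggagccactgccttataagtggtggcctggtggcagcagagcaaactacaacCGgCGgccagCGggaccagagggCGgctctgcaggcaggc
The *MACROH2A2* window holds 22 CG pairs, and 37.7% of the 35116 promoters of this length hold at least as many. *SHE* has 41 (6.69% of promoters) and *ID4* 39 (8.71%), while *SEMA3G* has 8 (60.7%). The median over all promoters is 14, so the genes shown as high in WT4 lie on both sides of it. Methylation was not measured, and 59 of the 85 tested named genes have an entry in the promoter table.

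Some main components of the matrix differed. Of 24 laminin, fibronectin and basement membrane genes tested, 2 were higher and 1 lower (12.5%, close to the 11.4% of all tested genes; median log2 difference 0.11, against -0.02 for all), or 1 and 2 with the GC curve. The lower gene was *FN1*, which codes for fibronectin and stood at 36.3 CPM in WT4 with FBS and 65.6 CPM without, against 151 to 318 CPM, median 245, in the other libraries. Both WT4 libraries lay below all 6 others, with a log2 difference of -2.22 (SE 0.23, edgeR adjusted p = 0.00284; 0.0720 without the WT4 library with FBS). *LAMA3*, a laminin chain of epithelial basement membranes, was higher (1.30, SE 0.29, edgeR adjusted p = 0.0201; 0.115 without WT4 with FBS and 0.195 without WT4 lacking it), and so was the collagen IV chain *COL4A4* at 1.29, though not with the GC curve (edgeR adjusted p = 0.0677). *LAMA4*, a laminin chain of vessel walls, was at 198 and 336 CPM in WT4 and 72.2 to 235 CPM elsewhere, and did not pass (0.97, SE 0.35, edgeR adjusted p = 0.141, but 7.15e-09 with line as a fixed factor). WT3 stood next to WT4 in this gene, at 147 and 235 CPM, and without WT3 the gene passed (0.00218).

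Among 26 other collagens, 2 were higher and 3 lower (19.2%, against 11.4% of all tested genes, with a list median of 0.10). *COL5A2*, a chain of collagen V that sets fibril width, was at 83.0 and 61.2 CPM in WT4 against 168 to 274 CPM, median 238. *COL12A1*, a collagen on the surface of fibrils, was at 46.3 and 44.9 CPM against 101 to 143 CPM, median 129. Both were below every other library, by log2 differences of -1.65 (SE 0.14, edgeR adjusted p = 0.00038) and -1.46 (SE 0.14, edgeR adjusted p = 0.000673). The collagen IX chains went the other way, *COL9A2* at 1.17 and *COL9A3* at 1.16.

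Of 26 matricellular and crosslinking genes, 1 was higher and 4 lower (19.2%, against 11.4% of all tested genes, with a list median of -0.16). *BGN*, the proteoglycan biglycan, was at 3.31 and 5.87 CPM in WT4 against 11.7 to 25.1 CPM, median 16.8, a log2 difference of -1.96 (SE 0.16, edgeR adjusted p = 0.00011). *CCN1*, a matrix-bound signalling protein, was at 69.8 and 22.3 CPM against 76.0 to 180 CPM, median 123 (-1.59, SE 0.22, edgeR adjusted p = 0.007). Its relative *CCN2* was lower too, at -1.31, as was *EFEMP1*, a fibulin, at -2.44, although *EFEMP1* did not pass with the random replicate block (limma voom, adjusted p = 0.115).

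Matrix proteases and their inhibitors gave 2 higher and 2 lower genes of 26 (15.4%, against 11.4% of all tested genes, with a list median of 0.28). *TIMP1*, a secreted inhibitor of matrix metalloproteinases, stood at 504 CPM with FBS and 423 CPM without in WT4. The other libraries ran from 137 to 186 CPM, median 148. This 3.0-fold excess (log2 difference 1.59, SE 0.12, edgeR adjusted p = 0.000195) held in both conditions, in contrast to *TIMP2* at -0.41. *PLAT*, tissue plasminogen activator, was at 143 and 197 CPM against 75.3 to 122 CPM (0.75, SE 0.11, edgeR adjusted p = 0.00244; 0.0546 without WT4 with FBS). The calls of *COL5A2*, *COL12A1*, *BGN*, *CCN1* and *TIMP1* held in each alternative.

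Cell adhesion genes changed in both directions. Of 25 adherens junction and nectin genes, 2 were higher and 5 lower (28.0%, against 11.4% of all tested genes, with a list median of -0.07). The counts were 3 and 3 with the GC curve and 2 and 3 with the random replicate block (limma voom). Of all 19005 genes, 1268 passed with the curve and 1212 (6.38%) with the block. *CDH13*, a cadherin anchored in the membrane by lipid, was at 58.9 and 77.5 CPM in WT4 against 111 to 169 CPM, median 137 (-1.0, SE 0.11, edgeR adjusted p = 0.000614). Exons of an antisense gene cover 21.4% of its exon bases, and the strand setting is not stated. *NCAM1*, a neural adhesion molecule, was at 8.84 and 11.4 CPM against 2.57 to 4.36 CPM, median 3.55 (1.53, SE 0.19, edgeR adjusted p = 0.000858). These opposite differences were outside the range of the other lines in each condition and held in each alternative. *NECTIN3*, a partner of *NECTIN1* across junctions, was at 54.2 and 38.3 CPM in WT4 against 79.7 to 109 CPM with FBS and 52.8 to 74.6 CPM without in the other lines (-0.71, SE 0.16, edgeR adjusted p = 0.0316; 0.330 without WT4 with FBS, 0.171 without WT4 lacking it, 0.0530 without WT1 lacking it, 0.121 with no filter on low counts and 0.153 with the GC curve). *NECTIN2* was at 20.9 and 19 CPM against 23.1 to 27.0 CPM, with a log2 difference of -0.34 (edgeR adjusted p = 0.0318; 0.0581 with the random replicate block in limma voom, and 0.0521 to 0.273 when any single library but WT1 with FBS was left out, but -0.54 and 0.00164 with the GC curve). *NECTIN4* stayed under 2 CPM everywhere, and *CDH2*, N-cadherin, was at 174 and 184 CPM in WT4 against 148 to 176 CPM (0.17, edgeR adjusted p = 0.148, but 0.24 and 0.0310 with the GC curve).

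The 20 integrin genes gave 2 higher and 1 lower (15.0%, against 11.4% of all tested genes, with a list median of 0.03), or 3 and 0 with the GC curve. *ITGA7*, a laminin-binding alpha chain, was at 10.1 and 13.5 CPM in WT4 against 3.78 to 8.60 CPM (0.96, SE 0.15, edgeR adjusted p = 0.00322; 0.111 without WT4 with FBS). *ITGA10*, a collagen-binding chain, differed by 0.91 (SE 0.18, edgeR adjusted p = 0.0145; 0.0883 without WT4 with FBS and 0.148 without WT4 lacking it), and *ITGA4* was lower at -0.59 (edgeR adjusted p = 0.189 with the GC curve). *ITGA5* and *ITGB1*, which together form the fibronectin receptor, did not pass (0.21 and -0.14, edgeR adjusted p = 0.0583 and 0.218), although *ITGA5* passed with line as a fixed factor (0.0286), with another scaling (upper quartile, 0.0451) and in DESeq2 (0.0373), and was above the 6 other libraries in both WT4 libraries. *ITGA6* (-0.08) and *ITGB4* (-2.09, SE 1.08), the chains of the laminin receptor of hemidesmosomes, did not pass either, except *ITGB4* with line as a fixed factor (-1.74, edgeR adjusted p = 1.91e-07), and *ITGB4* ranged from 2.84 to 63.6 CPM among the other lines.

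**Figure D3:**
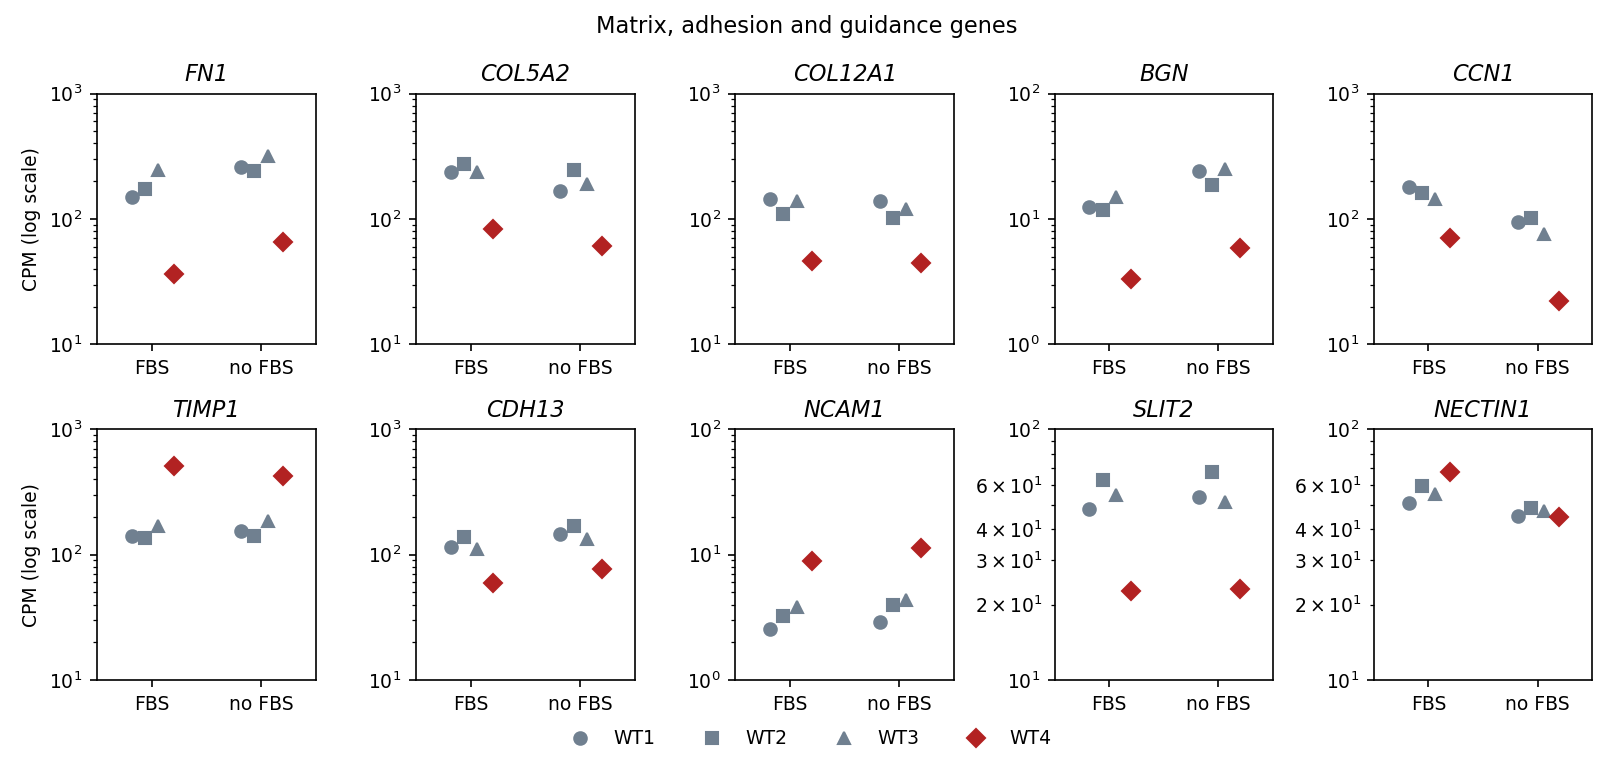
Level of 10 matrix, adhesion and guidance genes in each library, in CPM on a log axis, with FBS and without FBS, with WT4 as red diamonds. FN1, COL5A2, COL12A1, BGN, CCN1, CDH13 and SLIT2 are lowest in WT4, TIMP1 and NCAM1 are highest in it, and NECTIN1 at 67.4 and 44.8 CPM stays close to the other lines.

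Of 31 tested genes of the undifferentiated and neural crest state, 2 were higher and 6 lower with the random replicate block (limma voom). That fit called 6.38% of all genes. The list median was -0.14 in edgeR. None of the 31 was higher there and 6 were lower (19.4%, against 11.4% of all tested genes). Besides *NRG1*, they were *FOSL1*, an AP-1 subunit, at 301 and 126 CPM in WT4 against 430 to 463 CPM with FBS and 276 to 318 CPM without in the other lines (-0.88, SE 0.13, edgeR adjusted p = 0.00466), and *AXL*, a receptor tyrosine kinase, at 481 and 308 CPM against 572 to 657 and 451 to 579 CPM (-0.57, SE 0.12, edgeR adjusted p = 0.0157; 0.162 without WT4 lacking FBS). Within each condition WT4 was lowest in both. *AJUBA* (-1.11) and *TEAD4* (-0.44), both of TEAD-dependent transcription, and *TWIST2* (-1.19), a mesenchymal transcription factor, completed the 6. The 23 melanocyte lineage genes gave 1 higher and 1 lower (8.70%, against 11.4% of all tested genes, with a list median of 0.27). *OCA2*, a melanosome transporter, was at 1.76 and 1.90 CPM in WT4 against 0.131 to 0.710 CPM (2.16, SE 0.45, edgeR adjusted p = 0.0144; 0.180 without WT4 with FBS and 0.0955 without WT4 lacking it). *DCT*, a pigment enzyme, was at 0.247 and 0.0709 CPM against 0.450 to 2.91 CPM and did not pass with the random replicate block (limma voom, adjusted p = 0.165), without WT4 with FBS (edgeR, 0.233), without WT4 lacking it (0.171), without WT2 lacking it (0.0508) or with the GC curve (0.0574). With the block, 1 gene of this list passed in place of 2. *MITF* differed by 0.04 (SE 0.10, edgeR adjusted p = 0.826).

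Receptor tyrosine kinases gave 3 higher and 5 lower genes of 42 (19%, against 11.4% of all tested genes, median -0.07). With the random replicate block (limma voom), which called 6.38% of all genes, they gave 4 and 3. *EPHB1*, an ephrin receptor, was at 17.1 and 5.92 CPM in WT4 against 22.8 to 37.7 CPM, median 32.5 (-1.55, SE 0.21, edgeR adjusted p = 0.00422). *DDR2*, a receptor for fibrillar collagen, was at 79.4 and 108 CPM against 143 to 184 CPM, median 153 (-0.75, SE 0.10, edgeR adjusted p = 0.00181; 0.0594 without WT4 with FBS). Both were below every other library. *ALK* (1.55), *FGFR1* (0.92) and *EPHA3* (0.83) were the higher ones. In the insulin and IGF axis, 2 of 23 genes were higher and 2 lower (17.4%, against 11.4% of all tested genes, median 0.02). *IRS1*, the docking protein of the insulin and IGF1 receptors, was at 48.2 and 29.9 CPM in WT4 against 55.4 to 88.5 CPM, median 75.4 (-0.96, SE 0.15, edgeR adjusted p = 0.00622; 0.0575 without WT4 lacking FBS). Its relative *IRS4* was lower as well, at -3.22, but not with the random replicate block (limma voom, adjusted p = 0.112). *PIK3R3*, a regulatory subunit of PI3 kinase, was higher (0.60, SE 0.13, edgeR adjusted p = 0.0164; 0.0868 and 0.140 without WT4 with FBS and without WT4 lacking it), as was *STC1* at 2.41. *IGF1R* itself was at 323 and 311 CPM in WT4 and 280 to 338 CPM elsewhere, a difference of 0.02 (SE 0.07, edgeR adjusted p = 0.875).

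ERK output and feedback genes gave 5 higher and 2 lower of 23 (30.4%, against 11.4% of all tested genes, with a list median of 0.17), or 3 and 2 with the GC curve, with which 1268 of all 19005 genes passed. *FOS*, an immediate early AP-1 subunit, was at 9.16 and 9.55 CPM in WT4 against 2.83 to 4.95 CPM, median 3.07 (1.39, SE 0.23, edgeR adjusted p = 0.00492; 0.101 without WT4 with FBS). *EGR1* (1.43), *SPRY4* (1.03), *PHLDA1* (0.66) and *IER3* (0.55) were higher as well, while *FOSL1* and *EPHA2* (-1.15) were lower. *EPHA2* did not pass with the random replicate block (limma voom, adjusted p = 0.0613), nor *EGR1* and *SPRY4* with the GC curve (edgeR, 0.0679 and 0.0560). The AP-1 subunits *FOS* and *FOSL1* thus differed in opposite directions in WT4. *BRAF*, the kinase at the head of this pathway in A375, differed by 0.00 (SE 0.08, edgeR adjusted p = 0.996).

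With the GC curve, axon guidance genes gave 5 higher and 4 lower of 49 (median -0.11). Without it they gave 9 higher and 3 lower (24.5%, against 11.4% of all tested genes, median 0.02). Besides *SEMA3G*, the higher ones were *ROBO2*, a receptor of SLIT proteins (1.99), *PLXNB3* (0.99), *SEMA4C* (0.69), *PLXNA3* (0.56), *PLXNB1* (0.50), *SEMA3B* (0.49), *EFNA1* (0.47) and *SEMA4B* (0.41). *SLIT2*, a secreted ligand of ROBO receptors, was at 22.8 and 23.1 CPM in WT4 against 48.3 to 67.7 CPM, median 54.1 (-1.30, SE 0.13, edgeR adjusted p = 0.000478), and its call held in each alternative. WT4 therefore had less RNA of this ligand and more of a receptor for it. *SEMA3D* (-1.14) and *SEMA4D* (-0.50) were also lower, *SEMA3D* not with the random replicate block (limma voom, adjusted p = 0.103). With the GC curve, the edgeR adjusted p was 0.0522 for *SEMA3B*, 0.150 for *SEMA4B*, 0.0764 for *PLXNB1* and 0.0633 for *EFNA1*.

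Of 44 interferon-stimulated genes, 8 were higher and 0 lower (18.2%, against 11.4% of all tested genes, median 0.17) and 36 did not pass. The counts were 8 higher with the random replicate block and 6 with the GC curve (5 of the 8 and *GBP1*). The median of the list was 0.13, 0.18 and 0.31 for WT4 minus WT1, WT2 and WT3, and -0.13 for WT3 minus WT1 or WT2, so part of the spread lies among the other lines. *HERC5*, a ligase that attaches ISG15, was at 9.02 and 11.6 CPM in WT4 against 2.11 to 4.69 CPM, median 3.51 (1.55, SE 0.21, edgeR adjusted p = 0.00159; called in each alternative). *IFI35* was at 20.7 and 24.2 CPM against 9.29 to 16.6 CPM (0.77, SE 0.12, edgeR adjusted p = 0.0027; 0.0940 without WT4 with FBS). *GBP2* (1.51), *CMPK2* (1.04), *IRF7* (1.0), *ISG20* (0.88), *PARP9* (0.43) and *UBE2L6* (0.36) made up the rest, of which *IRF7*, *CMPK2* and *UBE2L6* did not pass with the GC curve (edgeR adjusted p = 0.115, 0.0730 and 0.168). MHC class I antigen presentation gave 5 higher and 2 lower of 20 (35.0%, against 11.4% of all tested genes, with a list median of 0.09). *HLA-C* was at 54.9 and 60.8 CPM against 25.9 to 46.1 CPM (0.77, SE 0.11, edgeR adjusted p = 0.00319; 0.115 without WT4 with FBS), and *HLA-B* differed by 0.83. These genes are near copies of each other and vary between people, so their split of reads is uncertain. *NLRC5*, their transactivator, was at 15.3 and 21.1 CPM against 10.8 to 16.3 CPM (0.43, SE 0.09, edgeR adjusted p = 0.0124; 0.176 without WT4 with FBS and 0.0788 with the GC curve). In this list 3 genes were higher and 0 lower with the random replicate block, and 2 higher and 2 lower with the GC curve. Of all 19005 genes, 1212 (6.38%) passed with the block and 1268 with the curve. None of 13 MHC class II genes was called (edgeR, 0 at an unadjusted p under 0.05, and 0 with the block in limma voom).

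NF-kB cytokines and chemokines gave 3 higher and 5 lower of 25 (32.0%, against 11.4% of all tested genes, with a list median of -0.05). With the random replicate block, which called 6.38% of all genes, the counts were 2 and 3. *CXCL8*, a neutrophil attractant, was at 4.44 and 1.49 CPM in WT4 against 8.67 to 12.2 CPM with FBS and 3.31 to 4.44 CPM without in the other lines (-1.35, SE 0.20, edgeR adjusted p = 0.00237; called in each alternative). *CXCL1* (-3.33), *IL24* (-2.50), *CCL2* (-2.36) and *CSF1* (-0.82) were lower too. *TRAF1*, an adaptor of TNF receptors, was higher at 9.79 and 40.4 CPM, against 4.03 to 5.93 CPM with FBS and 11.9 to 18.5 CPM without (1.20, SE 0.19, edgeR adjusted p = 0.00571; 0.0685 without WT4 lacking FBS). The membrane chemokine *CXCL16* (0.70) and *NFKB2* (0.27) were the other higher ones. With the block, *CXCL1*, *IL24* and *NFKB2* did not pass (limma voom, adjusted p = 0.0541, 0.0658 and 0.0805), and with the GC curve *CXCL16* and *NFKB2* did not (edgeR, 0.0752 and 0.767).

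Cancer-testis, imprinted, HOX and clustered protocadherin genes gave 11.8%, 12.9%, 8.33% and 1.89% called, close to or below the 11.4% of all genes. Of 34 cancer-testis antigens tested, 0 were higher and 4 lower (median -0.31), and 1 was lower with the random replicate block. *MAGEA10* was at 20.1 and 19 CPM in WT4 against 24.5 to 33.7 CPM (-0.54, SE 0.12, edgeR adjusted p = 0.0202; 0.169 without WT4 with FBS and 0.153 without WT4 lacking it). *XAGE1A* (-0.94) and *XAGE1B* (-0.85) are near copies, so the split of reads between them is uncertain. The call of *XAGE1A* ended with the block (limma voom, adjusted p = 0.0532) and without WT4 lacking FBS (log2 difference -0.54). *TEX15* was lower at -1.81, but neither it nor *XAGE1B* passed with the block (limma voom, adjusted p = 0.118 and 0.0996), nor *TEX15* with the GC curve (edgeR, 0.0977). Imprinted genes gave 3 higher and 1 lower of 31 (median 0.00), and 0 and 1 with the GC curve. *ZDBF2*, expressed from the paternal copy, was at 17.3 and 22.8 CPM against 29.1 to 33.0 CPM (-0.61, SE 0.10, edgeR adjusted p = 0.00507; 0.0918 without WT4 with FBS). *PHLDA2*, expressed from the maternal copy, was at 86.1 and 75.9 CPM against 47.2 to 63.1 CPM (0.49, SE 0.10, edgeR adjusted p = 0.0149; 0.315 without WT4 with FBS and 0.0701 with the GC curve). HOX genes gave 3 higher and 0 lower of 36, namely *HOXA3* (0.63), *HOXA5* (0.62) and *HOXC9* (0.43). Without WT4 with FBS the edgeR adjusted p was 0.319 for *HOXA3* and 0.205 for *HOXA5*, and without WT4 lacking FBS it was 0.0712 for *HOXA5*. *HOXC9* did not pass with the block (limma voom, adjusted p = 0.0839) or with the GC curve (edgeR, 0.173). Clustered protocadherins gave 1 higher of 53, *PCDHGB3* (1.46), which shares 45.6% of its exon bases with the other genes of its cluster, or 3 higher with the block. The call of *PCDHGB3* ended without WT4 with FBS (edgeR adjusted p = 0.140) and without WT4 lacking it (0.166).

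Genes of the cell cycle phases gave 4.65% (S phase) and 8.16% (G2 and M phase) called, against 11.4% of all tested genes. Of 43 S phase genes, 0 were higher and 2 lower (4.65%, median -0.08), *POLE2* (-0.48) and *PRIM1* (-0.35), and neither passed with the random replicate block (limma voom, adjusted p = 0.108 and 0.0969) or without WT4 with FBS (edgeR, 0.182 and 0.194). Leaving out any other library but WT2 with FBS and WT3 lacking it ended both calls as well, with edgeR adjusted p from 0.0587 to 0.200 for *POLE2* and from 0.0537 to 0.238 for *PRIM1*. With the GC curve these were 0.0861 and 0.113. G2 and M phase genes gave 1 higher and 3 lower of 49 (8.16%, median 0.03). With the GC curve, which called 1268 of all 19005 genes, they gave 0. *ANLN*, needed for cytokinesis, was at 349 and 229 CPM in WT4 against 411 to 457 CPM with FBS and 284 to 303 CPM without (-0.34, SE 0.06, edgeR adjusted p = 0.00866; 0.0675 without WT4 with FBS and 0.0962 with the GC curve). *ECT2*, its partner in the cleavage furrow, differed by -0.44 (edgeR adjusted p = 0.00909; 0.135 without that library and 0.0711 with the GC curve). Among 33 p53 targets and cell cycle inhibitors, 3 were higher and 1 lower with the block, and 2 and 1 with the GC curve. In edgeR without either, 4 were higher and 3 lower (21.2%, against 11.4% of all tested genes, median -0.17). The higher ones were the inhibitors *CDKN1C* (0.57), *CDKN2D* (0.49), *CDKN2C* (0.49) and *CDKN1B* (0.36), which restrain cyclin-dependent kinases, and the lower ones *PLK2* (-1.31), *RPS27L* (-0.42) and *MDM2* (-0.30). Exons of an antisense gene cover 20.4% of the *CDKN2C* exon bases. Without WT4 with FBS, *CDKN2C* and *CDKN2D* had edgeR adjusted p values of 0.256 and 0.25. With the block, *CDKN1C*, *MDM2* and *RPS27L* did not pass (limma voom, adjusted p = 0.0651, 0.0658 and 0.0581), and with the GC curve neither these 3 nor *CDKN2D* did (edgeR, 0.283, 0.320, 0.248 and 0.107).

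In metabolism, glycolysis and hypoxia genes gave 7 higher and 1 lower of 36 (22.2%, against 11.4% of all tested genes, median 0.10). They gave 4 and 1 with the random replicate block and also with the GC curve. *PFKFB4*, which sets the glycolytic activator fructose bisphosphate, was at 60.5 and 82.2 CPM in WT4 against 24.1 to 48.5 CPM, median 33.7 (1.08, SE 0.13, edgeR adjusted p = 0.00193; 0.0795 without WT4 with FBS). *NDRG1*, a hypoxia-induced gene, was at 106 and 210 CPM against 56.8 to 65.2 CPM with FBS and 105 to 145 CPM without (0.74, SE 0.11, edgeR adjusted p = 0.0027; 0.101 without that library). *SLC2A1*, the glucose transporter GLUT1, was the lower one, at -0.56. Cholesterol genes gave 2 higher and 3 lower of 28 (17.9%, against 11.4% of all tested genes, median 0.03). With the GC curve they gave 2 and 1. *HMGCS1*, an early enzyme of cholesterol synthesis, was at 20.9 and 25.1 CPM in WT4 against 33.5 to 51.9 CPM, median 41.6 (-0.89, SE 0.11, edgeR adjusted p = 0.000735; called in each alternative). Exons of an antisense gene cover 37.7% of the *HMGCS1* exon bases. NRF2 targets gave 2 higher of 32 (6.25%), or 0 higher and 1 lower with the GC curve and 1 higher with the block, among them *KEAP1* (0.37; edgeR adjusted p = 0.404 without WT4 with FBS and 0.218 with the GC curve; limma voom with the block, 0.0613). The 5 tested metallothionein and zinc genes gave 1 lower, *SLC39A10* (-0.28; limma voom with the block, adjusted p = 0.112; edgeR with the GC curve, 0.322, without WT4 with FBS, 0.450, and 0.0567 to 0.0769 without WT1 with FBS, WT1 lacking it, WT3 with FBS or WT2 lacking it). None of 13 mitochondrially encoded genes was called (edgeR, 2 at an unadjusted p under 0.05, and 0 with the block in limma voom).

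**Figure D4:**
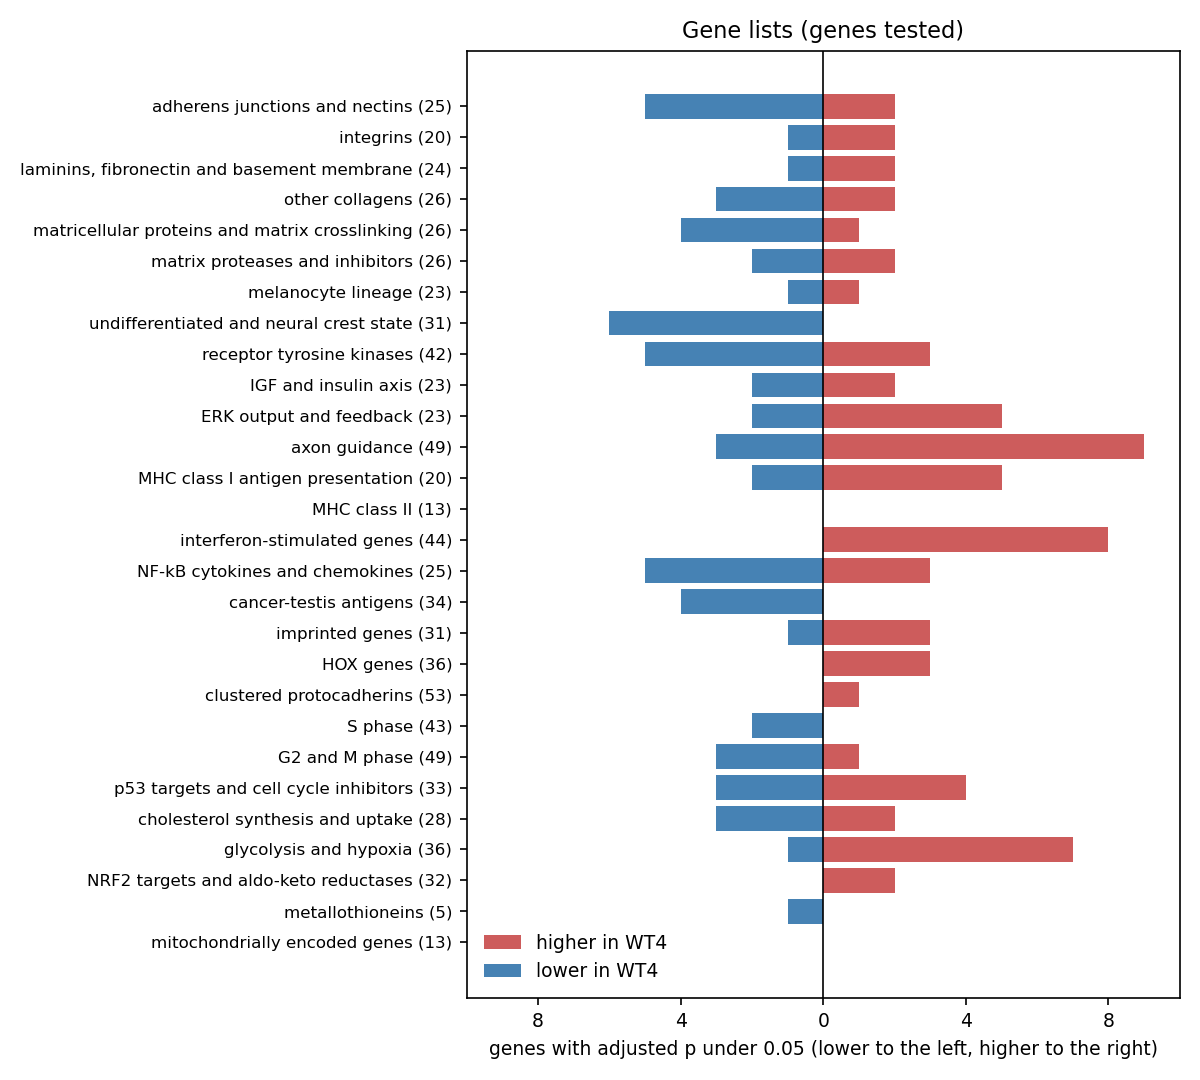
Number of genes called higher (red, to the right) and lower (blue, to the left) in WT4 in each of 28 gene lists, with the number tested in brackets. Calls are those of edgeR with no block or GC curve. Of all 19005 tested genes, 5.74% were called higher and 5.63% lower. Of 14027 protein-coding genes, 1012 were called higher and 970 lower. Axon guidance, interferon-stimulated and glycolysis genes reach 9, 8 and 7 higher (5, 6 and 4 genes higher in a fit with the GC curve), and the undifferentiated state reaches 6 lower of 31.

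The differences of WT4 moved with the GC content of genes. The 18732 tested genes with a known GC content of their transcript, of 19005, were ordered by it into 5 bins. The bin of lowest GC had a median log2 difference of -0.18 and the bin of highest GC 0.19. The trend was steeper with FBS (-0.27 to 0.30) than without (-0.08 to 0.10). Between WT1, WT2 and WT3 the medians of the outer bins stayed between -0.05 and 0.08. In the lowest bin 55 genes were higher and 498 lower, and in the highest 467 were higher and 54 lower. Of the 1268 genes that passed with the GC curve, 660 were higher and 608 lower, and 1007 were among the 2160, in the same direction. Of the 490 genes that differed at least 2-fold, 392 passed with the curve too. Whether the trend belongs to the WT4 libraries or to the line cannot be told apart.

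**Figure D5:**
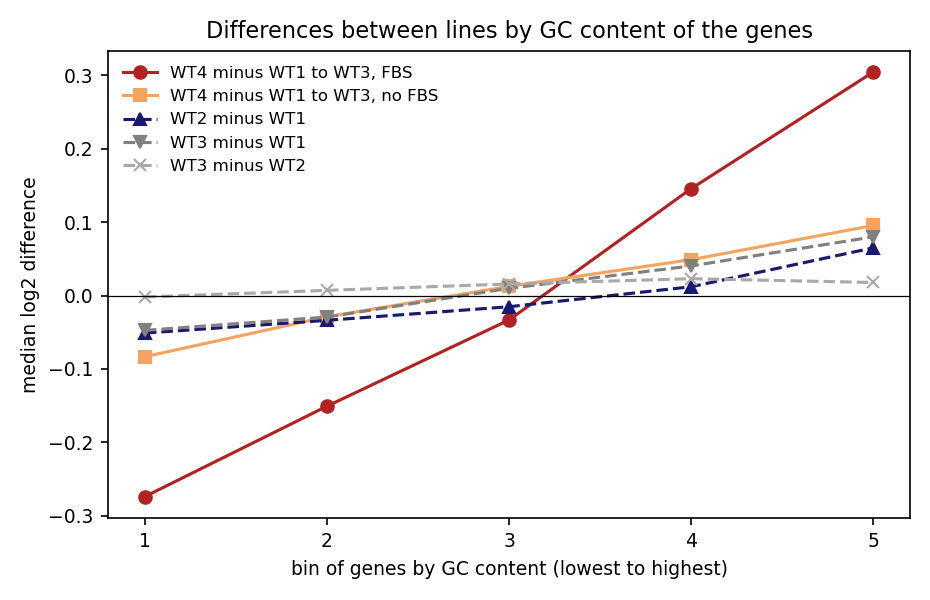
Median log2 difference over tested genes in each of 5 bins by GC content, for WT4 minus WT1 to WT3 with FBS and without FBS (solid) and for the pairs of other lines (dashed). The solid line for FBS climbs from -0.27 to 0.30, and the other curves stay between -0.08 and 0.10.

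Differences by chromosome followed the same trend. Chromosome 19 had the highest median log2 difference over its genes, 0.11, and chromosome 18 the lowest, -0.09. With FBS these 2 chromosomes stood at 0.23 and -0.11, without FBS at 0.03 and -0.01, and with the GC curve at -0.03 and 0.00. The range over all chromosomes was 0.208 in the main fit, 0.351 with FBS, 0.0792 without and 0.0770 with the GC curve. Of 1534 overlapping windows of 50 neighbouring genes, 0 had a median at or past 0.3 in either direction, with extremes of 0.27 and -0.29.

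Whether WT4 responds differently to losing serum was asked by the interaction of line and serum, with 1 WT4 library per condition. No gene passed with edgeR and no block (0 of 19005, 0%), with 1633 genes at an unadjusted p under 0.05 and 62 genes called by DESeq2. With line as a fixed replicate block, which compares the 2 libraries of each line with each other, 1068 genes passed (5.62%), 331 with a more positive and 737 with a more negative change in WT4, and 565 passed when the GC curve was added, 377 of them shared. *NECTIN1* changed on losing serum by -0.59 in WT4 and by -0.29 to -0.18 in the other lines, an interaction of -0.36 (SE 0.11, edgeR with the block, adjusted p = 0.0504; -0.19 and 0.386 with the GC curve added). It did not pass. The blocked fit matches the single WT4 pair exactly, so its measure of spread comes from the pairs of WT1, WT2 and WT3 alone.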

How the data were processed

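RNA was measured in 8 libraries of A375 lines. By the labels, which were followed, the authors trimmed reads (cutadapt), aligned them to GRCh38 (TopHat2 2.0.11) and deposited raw counts per gene from HTSeq, as whole numbers and not normalized. The paper instead describes an alignment to hg19 (GRCh37) and lists a cutadapt version for its work as a whole, and whether either applies to these counts is not known. The HTSeq version, gene annotation and strandedness are not given in the sources used here, which leaves antisense and overlapping genes uncertain. Rows naming no gene held 16.1% to 31.0% of reads and were left out. Line and serum come from the labels. Symbols matched 55604 of 58051 genes by identifier. Positions come from RefSeq (GRCh38), and GC content and exon overlap from GENCODE models on GRCh37, which is not the build the labels give.

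Genes were filtered with filterByExpr (2 groups, WT4 and the others), scaled by TMM and fitted by the robust quasi-likelihood method of edgeR 4.0.16 (R 4.3.3), with serum as covariate, Benjamini-Hochberg adjustment and a threshold of 0.05. The steps were tested on simulated data. Alternatives used limma 3.58.1 (voom), DESeq2 1.42.0, other scalings and filters, protein-coding genes only, equal depth, each library or line left out and, chosen after seeing the data, a GC curve. The line number pairs libraries of 1 line: their deviations from the condition means correlated across genes at 0.33 to 0.53, against at most 0.09 between lines. Counts by list were not recomputed without single libraries.

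The members and lists were chosen with earlier results of these data known. Named genes are a fixed set on adhesion and melanoma, the 2 called genes with the smallest p in each of 28 lists, the 12 largest differences each way among protein-coding genes of at least 1 CPM that do not overlap, 6 genes of the serum interaction, and genes off in either group. All other genes named were chosen after their values were seen and were not refitted without single libraries. Some genes are not reported here.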

Additional observations from a re-analysis of the deposited data

Results flagged for a closer look

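In 174 genes, of 1002 protein-coding genes of at least 1 CPM that passed a test of the interaction with line as a replicate block (edgeR, 19005 genes), the change on losing serum in WT4 was opposite to that in WT1, WT2 and WT3. The 6 with the smallest p, all upward in the 3 lines and downward in WT4, are given here. None passed without the block, where the smallest adjusted p of all genes was 0.485. *OLFML2A*, an extracellular olfactomedin-like protein, changed by 0.24 to 0.46 in the 3 lines and by -0.56 in WT4, a difference of -0.91 (SE 0.11, adjusted p = 4.11e-05). *H1-10*, a linker histone with antisense exons over 22.8% of its exon bases, changed by 0.19 to 0.31 and by -0.46, a difference of -0.72 (SE 0.09, adjusted p = 8.19e-05). *PTMS*, parathymosin, changed by 0.28 to 0.33 and by -0.29, a difference of -0.59 (SE 0.08, adjusted p = 0.000156). *LMNA*, which codes for the nuclear lamins A and C, changed by 0.18 to 0.30 and by -0.22, a difference of -0.45 (SE 0.07, adjusted p = 0.000203). *IGFBP2*, a binding protein of insulin-like growth factors, changed by 0.33 to 0.48 and by -0.25, a difference of -0.66 (SE 0.10, adjusted p = 0.000203). *HMG20B*, a subunit of a histone demethylase complex, changed by 0.23 to 0.36 and by -0.28, a difference of -0.60 (SE 0.09, adjusted p = 0.000207). With the GC curve added to the block, the same 6 differences were -0.80, -0.42, -0.33, -0.28, -0.54 and -0.35, with adjusted p from 0.000116 to 0.0143 (edgeR). The change in WT4 alone with the GC curve is not given here, so its downward direction is shown only without that curve. WT4 gave a single library in each condition, so the spread in the blocked fit comes from the 3 other lines.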

How the results depend on the processing

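All 74 named genes that passed kept their direction in each of 18 alternatives, and 25 passed in all. Of the 74, 14 did not pass with the random replicate block, 13 with the GC curve, 44 without WT4 with FBS and 24 without WT4 lacking FBS. A lone WT4 library was assumed to vary like the others. Leaving out single libraries gave 328 to 2373 genes in all, 170 to 1199 higher, 158 to 1174 lower, 175 to 528 at least 2-fold, and 0 to 0 for the serum interaction. For the serum interaction only the 6 libraries of WT1, WT2 and WT3 were left out in turn. The cause of the following moves was not tested. The line number as a replicate block (random, voom) gave 1212 genes, 462 of them lower, and as a fixed factor 4518 (2361 higher, 2157 lower, 922 at least 2-fold). DESeq2 gave 1662 lower. Leaving out the line WT1 gave 999 (594 higher, 405 lower). It ended 19 calls of named genes (edgeR adjusted p from 0.0502 to 0.157), among them *AXL*, *ACP3*, *CDCP1*, *CDKN2D*, *HOXA3*, *HOXA5*, *ITGA10*, *KEAP1*, *NECTIN2*, *NECTIN3*, *NLRC5*, *PIK3R3*, *POLE2*, *PRIM1*, *SLC39A10*, *TH*, *VGLL3* and *XAGE1A*. Leaving out WT2 ended those of *CD33*, *HOXA3*, *NECTIN2*, *POLE2*, *PRIM1* and *SLC39A10* (0.0505 to 0.0974), and WT3 those of *NECTIN2*, *POLE2*, *SLC39A10* and *SOD3* (0.0505 to 0.0644). Log2 differences shrank over 1.5 times with the GC curve for *NLRC5* (0.27), *PHLDA2* (0.26), *ANLN* (-0.19), *ECT2* (-0.27), *CDKN2C* (0.31), *CDKN2D* (0.29), *KEAP1* (0.17) and *SLC39A10* (-0.10), without WT4 lacking FBS for *NECTIN2* (-0.19), *AXL* (-0.37), *FOSL1* (-0.57) and *XAGE1A* (-0.54), and without WT4 with FBS for *CDKN2C* (0.25), *KEAP1* (0.21) and *SLC39A10* (-0.17). Signs turned in at least 1 alternative for *NECTIN1*, *IGF1R*, *MITF*, *BRAF*, *ITGA6* and *ITGB1*, none of which passed. The GC curve gave 1268 (660 higher, 608 lower), and with the random replicate block 723 (501 higher, 222 lower, 311 at least 2-fold). For the serum interaction the fixed replicate block gave 1068 genes, with the GC curve 565, DESeq2 62 and no filter 22. The range of chromosome medians was 0.351 with serum only, 0.0792 without and 0.0770 with the GC curve. The random block changed no other call of a named gene, and the fixed factor, whose error is the spread within lines, only those of *ITGA5*, *ITGB4* and *LAMA4*, which passed with it. Ratios that rest on few counts are imprecise, as their intervals show.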

Other observations

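Outside the lists, abundant genes were looked at after their values were seen. Protein-coding genes of at least 50 CPM on average that differed at least 2-fold, lay outside the other libraries and passed in edgeR, with the random replicate block (limma voom) and with the GC curve numbered 31, of which 10 were higher and 21 lower in WT4. *CAV1*, the coat protein of caveolae, was at 146 and 94.7 CPM in WT4 against 311 to 416 CPM with FBS and 226 to 333 CPM without in the other lines (2.79-fold lower). *TPM1*, a tropomyosin of actin filaments, was at 79.3 and 35.4 CPM against 198 to 235 and 103 to 153 CPM. *GDA*, guanine deaminase, was at 24.4 and 10.4 CPM against 96.0 to 168 and 55.3 to 132 CPM, the largest difference downward among the 31. *ETS1*, a transcription factor, *SAV1*, a scaffold of the Hippo pathway, and *ANXA6*, a calcium-dependent membrane binder, were lower as well, at -1.08, -1.01 and -1.49.

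Upward, *VGF*, a secreted neuropeptide precursor, was at 251 and 206 CPM in WT4 against 43.6 to 75.7 and 44.9 to 69.9 CPM (4.22-fold higher). *LTBP3*, which binds latent TGF-beta in the matrix, was at 543 and 857 CPM against 138 to 170 and 327 to 376 CPM (2.98-fold higher). *SDC3*, a heparan sulfate proteoglycan of the cell surface, was at 295 and 278 CPM against 83.9 to 133 and 98.2 to 150 CPM, and *PMEPA1*, a feedback inhibitor of TGF-beta signalling, at 206 and 146 CPM against 67.8 to 99.9 and 50.4 to 72.9 CPM. In each of these genes both WT4 libraries were above the 6 others, which the choice of genes required.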
